A study of Saccharomyces cerevisiae with 12 samples.

Results

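Budding yeast a cells mate with alpha cells after each has sensed the pheromone of the other, and 9 genes of this mating pathway are described here by the SUMO peaks at their promoters. SUMO is a small protein, called Smt3 in yeast, that the conjugating enzyme Ubc9 attaches to other proteins, and chromatin immunoprecipitation with an antibody against Smt3 followed by sequencing (SUMO ChIP-seq) shows where sumoylated proteins lie on the genome. The genes were STE2, STE12, FUS3, TEC1, SST2, PRM1, MFA1, MFA2 and FAR1, 9 of the 5865 nuclear protein-coding genes that do not encode ribosomal proteins. They were chosen by the peaks measured in these same lists, so their peaks are a description and carry no test. A peak was counted for a gene when its summit, the base of highest enrichment, lay from 500 bp upstream to 200 bp downstream of the first base of the start codon.

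The study compared 3 groups of cultures, all in the MATa strain background W303a and grown at 30 °C. The first was the ubc9-6 strain without treatment, which carries repeated copies of the ubc9-1 allele in place at UBC9 so that Ubc9 is less active, and which is 1 strain. The second was WT (W303a) after a shift to 37 °C for 12 min, and the third was WT without treatment. Each group had 2 immunoprecipitates, and each immunoprecipitate had its own input, for 12 samples in all. The study's methods describe the 2 replicates of a group as independent. No mating pheromone treatment appears in the sample labels, and no RNA levels of the genes are given here.

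The 6 peak lists held 600 and 709 peaks for the ubc9-6 label, 302 and 319 for the heat shock label, and 714 and 842 for WT untreated. The values given for each peak are the fold enrichment at the summit, which is the fragment pileup of the immunoprecipitate over the local background with 1 added to both, the q-value, and the rank of the peak by q-value in its list. A low percentile of the expected background, recovered for each list, was 114 to 140 fragments per base, and single peaks could exceed it. The intervals below are exact Poisson 95% intervals of the pileup that cover counting error only. The labels of the ubc9-6 and heat shock lists are in doubt. Of 30 heat-shock genes, 13 had a peak in both lists labelled ubc9-6, 6 of them with none in either WT untreated list, whereas 0 had one in the heat shock lists. HSP104, which encodes a disaggregase of heat-stressed cells, had folds of 1.96 and 2.28 under the ubc9-6 label and was not listed in the other 4 lists. The study reports that the Ubc9 mutant nearly loses SUMO peaks at promoters of protein-coding genes outside the ribosomal protein genes. Of 159 such genes, defined below, 77 had a peak in both lists labelled ubc9-6 and 1 in both labelled heat shock. The study describes some peaks, particularly at tRNA genes, as stable in the mutant. Under the heat shock label, 248 of 302 and 260 of 319 peaks lay at tRNA genes. Under the ubc9-6 label, 259 of 600 and 261 of 709 did. The labels may therefore be exchanged, which was not tested. The groups are called lists labelled ubc9-6 and lists labelled heat shock below. The direction of any difference between these lists rests on the labels. The WT untreated lists are not touched by this doubt.

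In the pheromone response, a receptor on the cell surface activates a G protein, which starts a cascade of kinases that ends at the MAP kinase Fus3. Fus3 activates the transcription factor Ste12, and Ste12 binds the pheromone response element (PRE, TGAAACA) in the promoters of genes for mating. Tec1 directs Ste12 to genes of filamentous growth, through the Tec1 site (CATTCC or CATTCT). Mcm1 with its partners sets the expression of genes particular to a cells or to alpha cells.

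SUMO was found at 7 of the 9 promoters in untreated WT cells. STE2, STE12, FUS3, TEC1, SST2, PRM1 and MFA2 had a peak in both WT untreated lists, and MFA1 and FAR1 had none in any list. In the lists labelled ubc9-6, only MFA2 had a peak in both replicates, while TEC1 and FUS3 had one in replicate 2 alone. Under the heat shock label, 0 of the 9 genes had a peak in either replicate. Each gene had at most 1 peak in its window per list. For the background, 5.1% of the 5865 genes had a peak in both lists labelled ubc9-6, 2.61% in both lists labelled heat shock and 6.34% in both WT untreated lists. Since the WT untreated peaks chose the genes, nothing is read from the count of 7 against the last share.

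**Figure D1:**
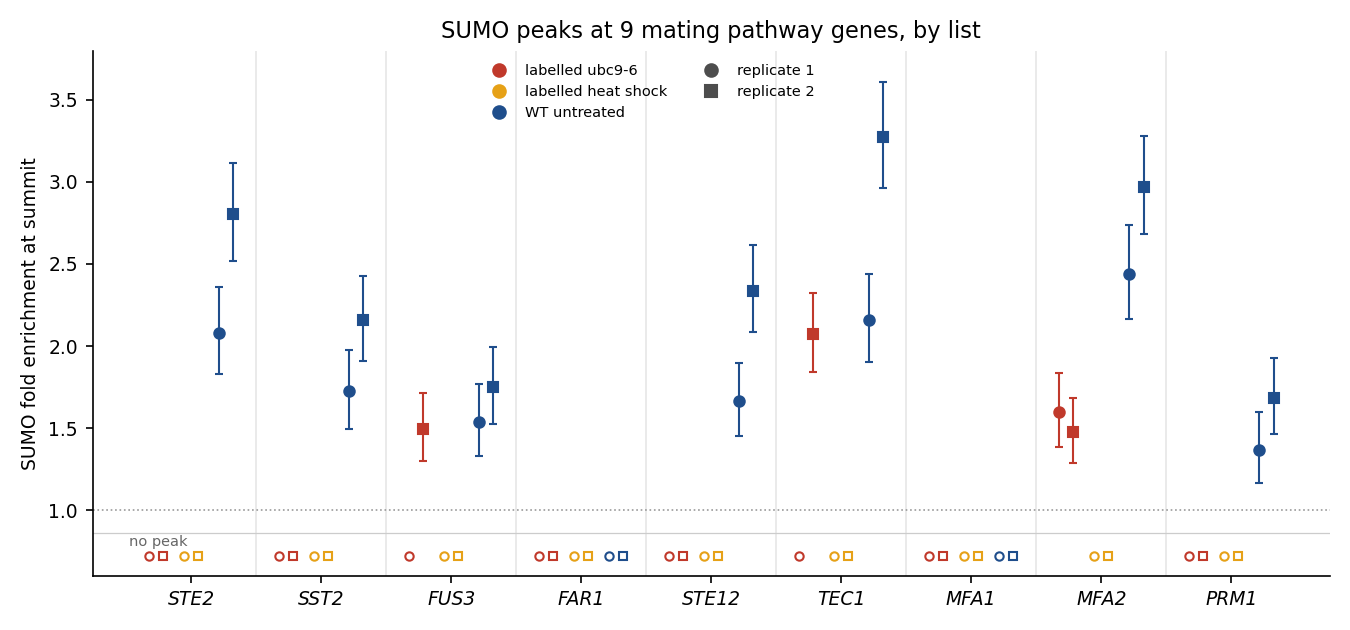
SUMO fold enrichment at the peak summit (vertical axis) of the 9 genes (horizontal axis) in each of the 6 lists; filled circles are replicate 1, filled squares replicate 2, bars are exact Poisson 95% intervals for counting error, and open symbols below the line mark lists with no peak. Peaks were present in both WT untreated lists at 7 genes, between 1.37 and 3.28, and at none of them under the heat shock label.

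The absences in the other groups can be set against genes of the same kind. Many promoter windows hold a peak that belongs to a tRNA gene, a ribosomal protein gene (RPG) or another noncoding gene nearby, and tRNA peaks are stronger than most, with median folds of 5.11 and 6.03 under the ubc9-6 label, 5.15 and 7.56 under the heat shock label and 8.17 and 11.3 in WT untreated. Over all peaks, 372 genes had a peak in both WT untreated lists, of which 73.9% also had one in both lists labelled ubc9-6 and 37.6% in both lists labelled heat shock. After removal of peaks at tRNA genes, RPGs and other noncoding genes, a step chosen after seeing the data that left all 14 WT untreated peaks of the mating genes in place, 159 genes (2.71% of the 5865) had a peak in both WT untreated lists. Of these 159, 48.4% also had a peak in both lists labelled ubc9-6, against which stands 1 of the 7 mating genes. By single list labelled ubc9-6, 1 of the 7 had a peak in replicate 1 and 3 in replicate 2. These lists held 185 and 285 peaks away from tRNA genes, RPGs and other noncoding genes. No share of the 159 by single list is given, so nothing is read from these counts. The 7 also had lower median WT untreated folds than the 159, as given below, and a difference between the shares was not tested. In both lists labelled heat shock the share of the 159 was 0.629%, or 1 gene, and 0 of the 7 mating genes had one. The absence from the lists labelled heat shock is thus near the background for promoters of this kind. The 2 comparisons share the WT untreated lists.

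The mating gene peaks were among the weaker ones of the WT untreated lists. Folds ran from 1.37 (PRM1) to 2.44 (MFA2) in replicate 1 and from 1.69 (PRM1) to 3.28 (TEC1) in replicate 2, with medians of 1.72 and 2.34. The 159 genes above, which include these 7, had medians of 2.11 and 2.50. By q-value the 7 peaks stood at the 1.19 to 29.8 percentile of the replicate 1 list and at the 14.7 to 42.7 percentile of the replicate 2 list, where 100 would be the strongest peak. The summits held 160 to 286 fragments in replicate 1 and 210 to 409 in replicate 2. All 7 folds were higher in replicate 2, by a median of 0.32 on the log2 scale, and 69.8% of the 159 genes were higher in replicate 2 as well, by a median of 0.20. The difference between replicates is thus shared with other genes.

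**Figure D2:**
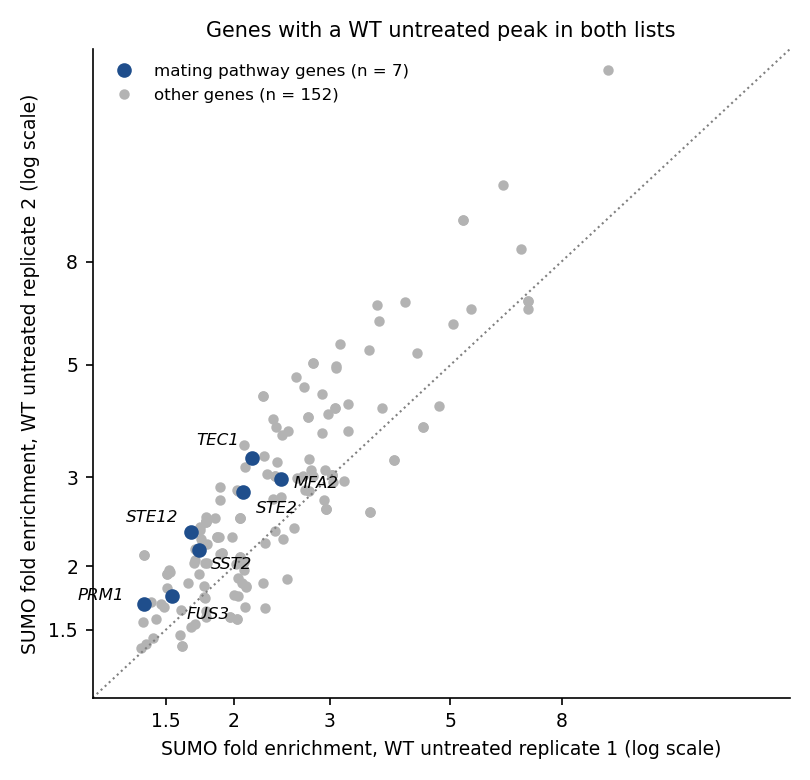
SUMO fold enrichment in WT untreated replicate 1 (horizontal, log scale) and replicate 2 (vertical, log scale) for the 7 mating genes (named, large points) and the other 152 genes with a peak in both lists that is not at a tRNA gene, RPG or other noncoding gene; the dotted line marks equal values. The mating genes lie above the line, at folds of 1.37 to 3.28, in the lower part of the range.

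The stretches of promoter under the WT untreated summits are shown for the 7 genes because the summits fell into 2 kinds of position. Each is read on the strand of the gene from the S288C reference genome of RefSeq (assembly R64, sacCer3) and not from the W303a strain. Capitals mark PREs (TGAAACA, or TGTTTCA where it lies on the other strand) and TATA elements (TATA, then A or T, then A, then A or T, then A or G, on either strand). At STE12, TEC1, SST2 and FUS3 the summits lay far upstream of the start codon.
STE12: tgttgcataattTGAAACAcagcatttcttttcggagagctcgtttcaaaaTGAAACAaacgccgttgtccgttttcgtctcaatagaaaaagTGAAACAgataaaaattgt
TEC1: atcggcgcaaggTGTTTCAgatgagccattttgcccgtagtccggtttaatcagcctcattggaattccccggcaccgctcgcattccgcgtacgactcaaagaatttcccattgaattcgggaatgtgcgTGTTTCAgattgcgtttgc
SST2: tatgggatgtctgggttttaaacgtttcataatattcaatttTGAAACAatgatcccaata
FUS3: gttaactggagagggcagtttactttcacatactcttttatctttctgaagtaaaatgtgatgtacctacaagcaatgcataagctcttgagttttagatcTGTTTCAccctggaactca
At STE2, MFA2 and PRM1 the summits lay close to the start codon.
STE2: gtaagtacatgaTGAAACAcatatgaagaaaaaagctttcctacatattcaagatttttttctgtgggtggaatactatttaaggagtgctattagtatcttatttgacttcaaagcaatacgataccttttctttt
MFA2: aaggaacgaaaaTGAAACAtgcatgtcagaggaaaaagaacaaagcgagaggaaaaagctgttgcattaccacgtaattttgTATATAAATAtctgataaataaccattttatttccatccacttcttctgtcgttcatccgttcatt
PRM1: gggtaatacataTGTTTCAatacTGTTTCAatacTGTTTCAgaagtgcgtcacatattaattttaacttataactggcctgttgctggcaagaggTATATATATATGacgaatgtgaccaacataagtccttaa
In the same order these are chrVIII:273688-273799, chrII:408648-408797, chrXII:1041593-1041653 (minus strand), chrII:192088-192207, chrVI:82371-82507, chrXIV:352207-352354 and chrXIV:110724-110857. The last 3 stretches stop 60 bp or more before the start codon, so that the WT untreated summits of MFA2, at −65 and −63 bp, lie close to the end of its stretch and the PRM1 summit at −58 bp lies past the end of its own.

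Mean summit positions of the 2 WT untreated lists were −463.5 bp at STE12, −431 bp at TEC1, −323 bp at FUS3 and −274.5 bp at SST2, and −90 bp at STE2, −83.5 bp at PRM1 and −64 bp at MFA2. The median over these 7 was −274.5 bp. It was −171.5 bp over the 159 genes and −262.25 bp over the 372 genes with any peak in both WT untreated lists. Of the 7 genes, 4 had a mean summit more than 250 bp upstream (57.1%), against 32.7% of the 159 and 52.4% of the 372. The positions of the 7 are thus near those of the 372 genes and farther upstream than those of the 159. The 159 are the set of like kind, since they include the 7, and the difference from them was not tested. The 2 replicates placed the summit of a gene 1 bp (SST2) to 56 bp (FUS3) apart, with a median gap of 15 bp, against 14 bp over the 159 genes. All 14 summits lay between genes, upstream of the coding sequence. The summit closest to the limit of the window was that of STE12 in replicate 2, at −471 bp, and where a list had no peak in a window, the nearest summit was 2779 bp or more from the start codon.

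PRE matches were common near the summits. Of the 7 genes with a peak, 5 (STE12, TEC1, SST2, FUS3 and PRM1) had a PRE whose centre lay within 100 bp of the mean summit, against 6 of the other 152 genes (3.95%), of which ERG24 shares its peak with PRM1. Within 50 bp the count was 3 of 7 (STE12, TEC1 and SST2), against 6 of the 159 genes (3.77%), which include these. In the whole window, 8 of the 9 genes had a PRE, FAR1 being the exception, against 16.8% of the 5865 genes, and 6 of the 9 had at least 2, against 1.71%. These genes are known for the pheromone response and several are textbook targets of Ste12, so the share of PREs among them is not independent of how they were chosen. TATA elements stood in 8 of the 9 windows, against 3285 of the 5865, and within 100 bp of the summit at 3 of the 7 genes, against 54.7% of the 159. Tec1 sites were in 5 of 9 windows, against 55.7%, and the Mcm1 box was in 4 of 9 (STE2, MFA1, MFA2 and FAR1), against 18.7%. A match is a stretch of letters and not a measured binding site.

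**Figure D3:**
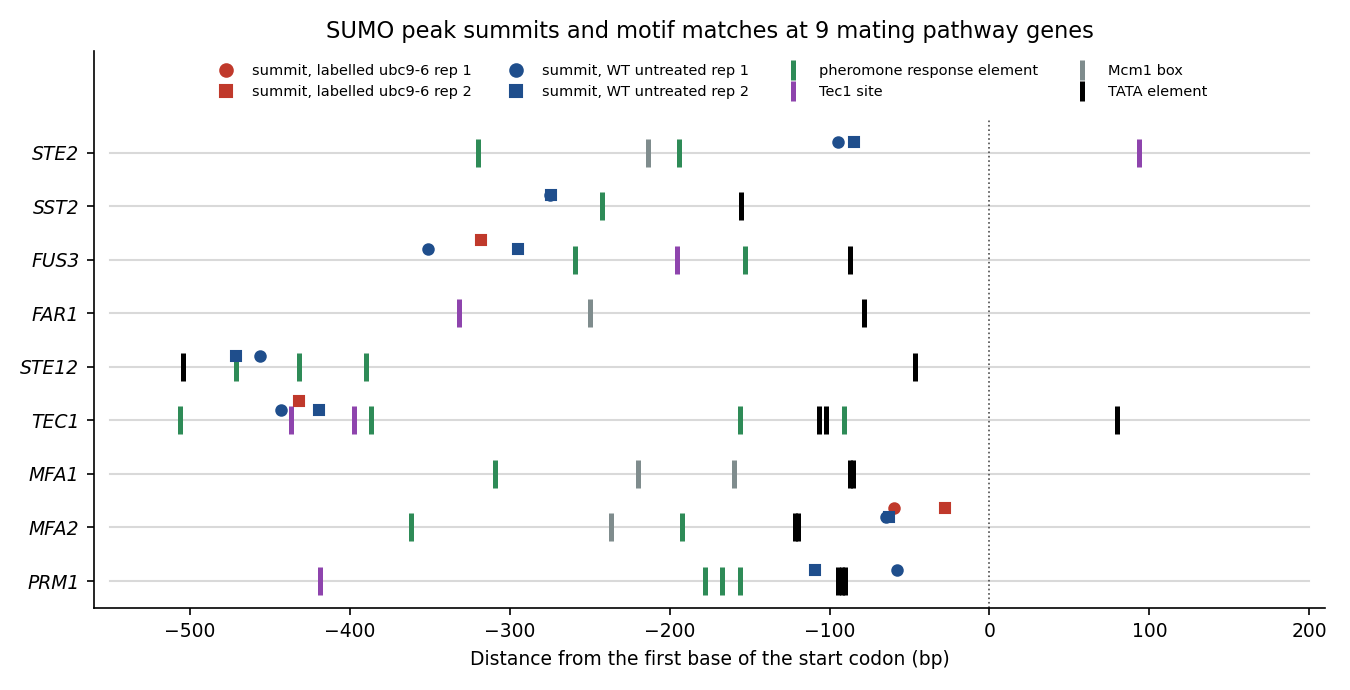
Positions of peak summits and motif matches (horizontal axis, distance in bp from the first base of the start codon) at the 9 genes (rows); circles and squares are summits of replicates 1 and 2 in the lists labelled ubc9-6 (red, upper) and in WT untreated (blue, lower), and vertical ticks are motif matches on either strand. The WT untreated summits at STE12 and TEC1 stand among PREs or Tec1 sites, while those at STE2 and MFA2 lie closer to the start codon than the nearest PRE.

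STE2 encodes the receptor of a cells for alpha factor and is expressed only in a cells. The gene is YFL026W, chrVI:82580-83875, and the summit lay in the 668 bp between it and the divergent gene GYP8. In WT untreated the fold was 2.08 (interval 1.83 to 2.36, rank 553 of 714) in replicate 1 and 2.80 (2.52 to 3.11, rank 518 of 842) in replicate 2. The peak was thus listed in both WT replicates, with counting intervals that do not overlap, so these replicates differed by more than counting error. The other lists had no peak here, with the nearest summits at 8212 and 8209 bp for the ubc9-6 label and at −17408 and −17420 bp for the heat shock label. The nearest PRE was centred at −194 bp, 104 bp upstream of the mean summit, and the Mcm1 box stood at −213.5 bp.

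SST2 encodes the regulator that turns the G protein off again and so lowers pheromone sensitivity. It is YLR452C, chrXII:1039270-1041366 on the minus strand, with RIF2 433 bp upstream. In WT untreated the fold was 1.72 (1.50 to 1.98, rank 629) in replicate 1 and 2.16 (1.91 to 2.43, rank 600) in replicate 2. The summits stood at −275 and −274 bp, the closest pair of the 7 genes. The single PRE was centred 32.5 bp from them, at −242 bp. No other list had a peak at SST2, and the nearest summits were at −10791 and −10793 bp for the ubc9-6 label and at −10798 and −10793 bp for the heat shock label.

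FUS3 encodes the MAP kinase of the pathway. It is YBL016W, chrII:192451-193512, and shares 868 bp of upstream sequence with the divergent gene PEP1. The fold was 1.50 (1.30 to 1.71, rank 635 of 709) in the list labelled ubc9-6, replicate 2, with no peak in replicate 1, against 1.54 (1.33 to 1.77, rank 664) and 1.75 (1.53 to 2.00, rank 695) in WT untreated. The 3 counting intervals overlapped. The summit stood at −318 bp in the list labelled ubc9-6, between the WT untreated summits at −351 and −295 bp. PREs were centred at −259 and −153 bp, both closer to the gene than any of the summits.

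FAR1 encodes the inhibitor that Fus3 activates to stop the cell cycle before mating. It is YJL157C, chrX:123836-126328 on the minus strand, and had no peak in its window in any list. The nearest summits were 4613 and 4683 bp past the start codon in the lists labelled ubc9-6 and 5956 and 2779 bp past it in WT untreated. Its window held 0 full PREs and 2 copies of the element without its last base (TGAAAC), centred at −336.5 and −213.5 bp. The lowest fold of any listed peak was 1.21 and 1.19 for the ubc9-6 label, 1.05 and 1.08 for the heat shock label, and 1.23 and 1.22 for WT untreated. These are minima over whole lists, and the smallest fold that can be listed depends on the local background. A weak enrichment at FAR1, also one above these sizes, may thus have gone unlisted.

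STE12 encodes the transcription factor at the end of the pathway. It is YHR084W, chrVIII:274174-276240, and lies 558 bp downstream of SAM35 on the same strand. In WT untreated the fold was 1.66 (1.45 to 1.90, rank 634) in replicate 1 and 2.34 (2.08 to 2.61, rank 563) in replicate 2. These intervals do not overlap either. The summits at −456 and −471 bp stood at a cluster of 3 PREs centred at −471, −432 and −390 bp, so that the replicate 2 summit coincided with the centre of the first. In the other 4 lists the nearest summits were farther than 36 kb away, at −36238 and −36234 bp for the ubc9-6 label and at −36219 and −36218 bp for the heat shock label.

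TEC1 encodes the partner of Ste12 at genes of filamentous growth and carries both kinds of motif upstream. It is YBR083W, chrII:409169-410629, with 2000 bp between it and the divergent gene UBC4. The fold was 2.07 (1.84 to 2.32, rank 501 of 709) in the list labelled ubc9-6, replicate 2, with no peak in replicate 1, against 2.16 (1.90 to 2.44, rank 537) and 3.28 (2.97 to 3.61, rank 483) in WT untreated. The labelled ubc9-6 value was within the counting interval of WT untreated replicate 1 and below that of replicate 2. In the list labelled ubc9-6, replicate 1, the nearest summit was at −3286 bp. The peak at TEC1 was thus listed in 1 of the 2 lists of the ubc9-6 label and in neither list of the heat shock label. The summits, at −432 bp for the ubc9-6 label and at −443 and −419 bp in WT untreated, lay between PREs at −506 and −387 bp. Tec1 sites stood at −436.5 and −397.5 bp, the first of them 5.5 bp from the mean WT untreated summit. Of the PREs at TEC1, 2 more lay at −156 and −91 bp, with no summit near.

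MFA1 and MFA2 both encode a-factor, the pheromone that a cells secrete, and only MFA2 had a peak. MFA2 is YNL145W, chrXIV:352414-352530, and was the 1 gene of the 9 with a peak in all 4 lists of the ubc9-6 label and of WT untreated. The fold was 1.60 (1.39 to 1.83, rank 545 of 600) and 1.48 (1.29 to 1.68, rank 639 of 709) in the lists labelled ubc9-6, against 2.44 (2.16 to 2.74, rank 502) and 2.97 (2.69 to 3.28, rank 502) in WT untreated. Both values of the ubc9-6 label lay below both WT untreated values, with no overlap of counting intervals. Means were 1.54 ± 0.0868 in the lists labelled ubc9-6 and 2.71 ± 0.378 in WT untreated (SD, n = 2 each), a log2 difference of −0.81. Of the 77 genes with a peak in all 4 lists outside tRNA genes, RPGs and other noncoding genes, 64.9% also had both values of the ubc9-6 label below both of WT untreated. Their median difference was −0.47, and 17 of the 77 had a lower value than MFA2. Over the 275 genes with any peak in all 4 lists, the median difference was −0.77 (quartiles −0.88 and −0.66), so MFA2 lay between these quartiles. When each fold was divided by the median fold of the tRNA peaks of its list, the difference at MFA2 was −0.02. An exact permutation test of 2 lists against 2 cannot give a p below 0.333, so no call was made.

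The summits at MFA2 stood at −60 and −28 bp in the lists labelled ubc9-6 and at −65 and −63 bp in WT untreated. The TATA elements at −121.5 and −119.5 bp and the nearest PRE, at −192 bp, were both farther upstream. MFA1, which is YDR461W, chrIV:1385176-1385286, had its nearest summit between 16258 and 16268 bp past the start codon in every list. Its window held a PRE at −309 bp, 2 Mcm1 boxes and TATA elements near −87.5 bp. The deposited lists do not say how reads with equally good positions in both genes were placed. The 5 genes whose folds over the same 4 lists came closest to those of MFA2, of 271 candidates, were BAP2, ZRT1, YJL047C-A, HRP1 and MRH1, at Euclidean distances of 0.23 to 0.42 in log2 fold. YJL047C-A and MRH1 are not among the 159 genes, since a WT untreated peak of theirs lay at a tRNA gene, RPG or other noncoding gene.

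PRM1 encodes a membrane protein that helps the membranes of mating cells to fuse. It is YNL279W, chrXIV:110917-112902, and its peak was the weakest of the 7. In WT untreated the fold was 1.37 (1.17 to 1.60, rank 706 of 714) in replicate 1 and 1.69 (1.47 to 1.93, rank 719 of 842) in replicate 2. The −log10 q-values were 2.71 and 10.5, so that replicate 1 was close to the limit of the list. The summits at −58 and −109 bp lay on either side of TATA elements centred at −94.5 to −90.5 bp. A row of 3 PREs at −178, −167 and −156 bp stood farther upstream. The 506 bp upstream of PRM1 end at the divergent gene ERG24, which encodes a sterol reductase, and the same summits were −448 and −397 bp from its start codon, so the peak cannot be told apart between the 2 genes.

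Few genes of the rest of the pathway had a peak, which was also so of genes in general. Of 56 other pathway genes, 1 had a peak in at least 1 list of the ubc9-6 label, 0 in one of the heat shock label and 3 in one of WT untreated, and 0 had a peak in both lists of any group. Over all 5865 genes, 6.72% had a peak in at least 1 list of the ubc9-6 label, 3.07% in one of the heat shock label and 8.83% in one of WT untreated, so the low counts among the 56 are not a result about the pathway. All 3 were among the 20 genes of agglutination, fusion and karyogamy, and were listed in replicate 2 alone. FIG2, which encodes a cell wall adhesin of mating cells, had folds of 1.63 in the list labelled ubc9-6, replicate 2, and 2.32 in WT untreated replicate 2. AGA1, which encodes the anchorage subunit of a-agglutinin, had a fold of 1.77 in WT untreated replicate 2, and FUS1, needed for cell fusion, had 1.63. The 4 receptor and G protein genes, the 9 genes of the kinase cascade and scaffold, the 4 transcription regulators, the 6 genes of signal attenuation and the 13 genes of pheromone synthesis and export had 0 peaks in every list. These include STE4, STE7, STE11 and BAR1.

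The genes that mark each mating type are given as counts. Of 7 genes expressed in a cells only, 1 (MFA2) had a peak in both lists of the ubc9-6 label, 0 in those of the heat shock label and 2 (STE2 and MFA2) in WT untreated. Of 4 genes expressed in alpha cells only, 0 had a peak in any list. STE2 and MFA2 are among the 9 genes chosen for their peaks, and a peak is not a measure of expression, so these counts are no check of the mating type. The a-specific gene STE6, which encodes the exporter of a-factor, had summits just outside the window in all 6 lists, at −501 to −543 bp. These lay at the tRNA gene TRT2, 0 and 4 bp from it in WT untreated, with folds of 4.52 and 5.02 for the ubc9-6 label, 3.97 and 5.56 for the heat shock label and 6.75 and 9.18 in WT untreated.

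**Figure D4:**
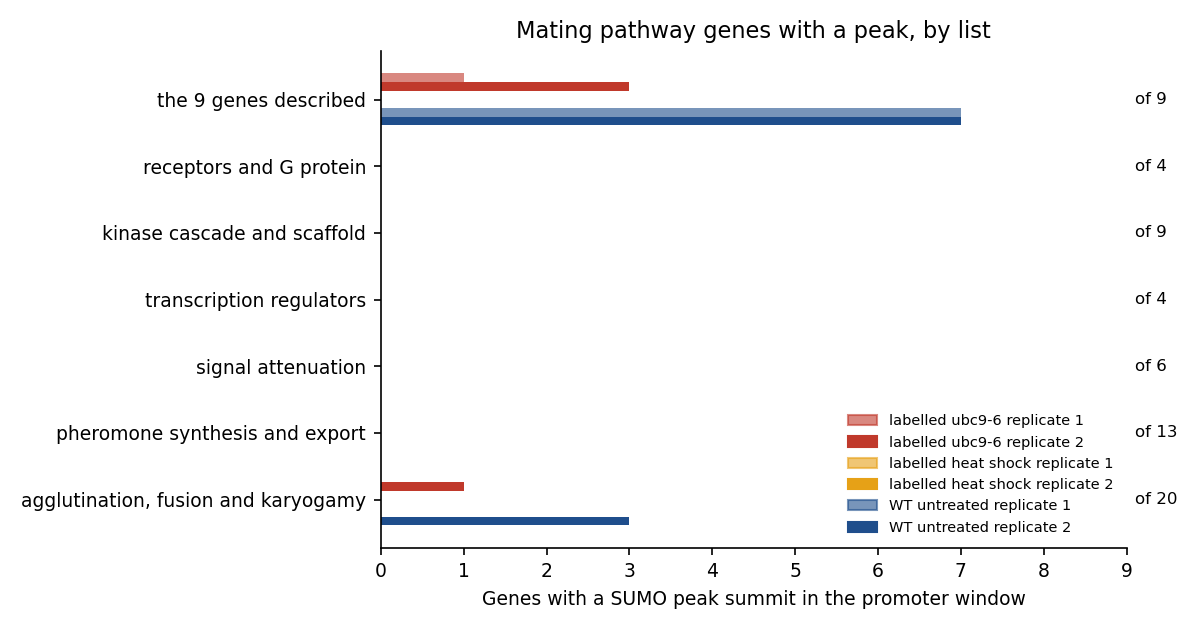
Number of genes with a SUMO peak summit in the promoter window (horizontal axis) for the 9 genes and for 6 groups of other pathway genes (rows, group size at the right), with 1 bar per list; paler bars are replicate 1. WT untreated had 7 of the 9 genes in each replicate, the list labelled ubc9-6 had 1 and 3, and of the other 56 genes 3 had a peak in WT untreated replicate 2 and 1 in the list labelled ubc9-6, replicate 2.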

How the data were processed

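SUMO ChIP-seq had been done in 6 immunoprecipitates and 6 inputs. Per the study's methods and processing notes, the authors used Bowtie2 2.3.5 (sacCer3) for alignment and MACS2 2.1.1.20160309 for narrow peaks, comparing every immunoprecipitate with its input and keeping q-values up to 0.05, without pooling replicates. The deposited lists give a linear ratio, the fold enrichment at the summit, with a pseudocount of 1, and the p-value and q-value on the −log10 scale. Fold and rank depend on depth and background of each list, so they compare peaks within a list better than between lists.

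Groups came from sample titles, and lists were tied to samples by the sample descriptions. The reference (RefSeq R64) is the same assembly, and all 3486 peaks lay within its chromosomes. Where a window held several peaks, the one with the best q-value was taken, and peaks were ranked by q-value. Peaks at tRNA or other noncoding genes had a summit within 250 bp of one, and RPG peaks had one between 800 bp before and 100 bp after the start codon. Fragments at the summit were solved from fold and p-value where the p-value was above 1e-290 (1956 peaks, of which 98.4% gave a count within 0.05 of a whole number), and no count test was run on them. Library totals are not given in the lists. Motifs were sought on both strands, overlapping matches counted separately, except that the same bases matching on both strands counted once.

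The 9 genes, the list of 56 other pathway genes, the marker lists and the tests were chosen with earlier results of these data known. The genes named were the 9, any listed pathway gene with a peak, a neighbour whose window holds the same peak, and the 5 non-ribosomal genes nearest to the mean log2 folds of those of the 9 with a peak in all 4 lists of the ubc9-6 label and WT untreated. STE6 and TRT2, HSP104, and the genes in the closing section were named after their values were seen. Alternatives were 2 other windows, a q-value limit of 1e-10, peak overlap in place of the summit, leaving out each replicate, a replicate block, a scale set by tRNA peaks, and 2 motif settings. Functions were tested on simulated data. Python 3.11.15 with numpy 2.4.6, pandas 2.3.3 and scipy 1.17.1 was used.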

Additional observations from a re-analysis of the deposited data

How the results depend on the processing

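Of 51 values recomputed under other settings, 44 kept their direction, with counts within 1.5 times of the main count and the median position within 0.707 bp. This is the SD between the medians of the replicates, and summits of single genes were up to 56 bp apart. The other 7, all counts, moved. Several of the 44 could not have moved. Each heat shock list held 0 of the genes and each WT untreated list held the same 7, so leaving out a list changed neither count. Among the 44, the log2 difference at MFA2 kept its sign but shrank to −0.02, against −0.81, with folds scaled to the tRNA peaks of each list. With a q-value limit of 1e-10, 0 genes had a peak in both lists labelled ubc9-6, where MFA2 had had one, 5 had one in both WT untreated lists, and 3 genes had a PRE within 100 bp of the summit, the same count as within 50 bp. Without one of the 2 lists labelled ubc9-6, the genes with a peak numbered 1 to 3, the higher value without replicate 1. Of the other pathway genes, 2 (STE6 and CDC42) had a peak in both WT untreated lists in the window from 800 bp upstream to 100 bp downstream and also by overlap of the peak with the window, and both peaks lay at tRNA genes. Without one of the WT untreated lists the number was 0 to 3, the higher value without replicate 1. No difference could be computed for the ubc9-6 label at the stricter q-value limit, since no gene had a peak in all 4 lists.

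With 1 list left out, the median log2 difference over the genes with a peak in the remaining lists was −0.95 to −0.36, where −0.36, without the list labelled ubc9-6 replicate 1, was over 3 genes. At MFA2 alone it was −0.95 to −0.67. With replicate numbers as a replicate block it was −0.81, the same by construction, since pairing leaves a mean difference unchanged. The exact sign-flip p was 0.5, the smallest that 2 pairs allow. This setting is also counted among the 44 above although it could not have moved. The deviations of same-numbered lists correlated at 0.47 over 275 genes, but nothing in the labels ties the numbers across groups, so the lists were not treated as paired. The lists give no library totals, and the effect of depth on the weakest peaks was not tested.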

Other observations

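Some other genes carried PREs under a WT untreated peak. Of the 152 other genes with peaks away from tRNA genes, RPGs and other noncoding genes, 3 had at least 2 PREs within 100 bp of the mean summit. ERG24 shares the peak and the PREs of PRM1. DSE2, a gene expressed in daughter cells after division, had 3 PREs around a mean summit at −289 bp, with folds of 1.65 and 1.86 in WT untreated and no peak in the other 4 lists. DSE4, which encodes a glucanase that helps to separate daughter cells, had 2 PREs around a mean summit at −59 bp. Its folds were 1.69 and 1.54 in WT untreated, and it had a peak in 1 of the lists labelled ubc9-6. AMN1, SSF2 and GFA1 had 1 PRE each, at mean summits of −294, −369.5 and −427.5 bp. These genes were named after their values were seen, and no test was run on them.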
